A study of Macaca fascicularis with 48 samples.

Results

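The genes described here code for the proteins of the cytosolic ribosome. They were taken by name from the deposited count table, as every row whose symbol is that of a large (RPL) or small (RPS) subunit protein or is RPLP0, RPLP1, RPLP2 or RPSA, leaving out the RPS6K kinases. The rule found 53 of the 16842 gene rows, 32 of the large and 21 of the small subunit. The 53 include 6 near copies, genes that resemble another member and carry its name with an L (RPL3L, RPL7L1, RPL22L1, RPL26L1, RPL39L and RPS27L), and 47 other members. RPLP1, RPS27, RPL26, RPL39 and the Y-linked RPS4Y genes were not analysed here. Of 84 protein-coding RefSeq symbols that match the rule, 52 were rows of the table. Shares and summed levels below therefore cover a part of the family. The members lie on 16 chromosomes of the Macaca_fascicularis_5.0 build, and their annotated length is short, with a median of 805 bases against 2654 for all rows.

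A cytosolic ribosome holds a single copy of most of its proteins, and their messenger RNAs are among the most abundant in a cell. Most of these messengers begin with a terminal oligopyrimidine tract, through which growth signals acting by mTOR and LARP1 set how many of them are translated and how stable they are. Ribosomal proteins made in excess of ribosomal RNA are degraded, and free RPL5 and RPL11 bind MDM2, the ubiquitin ligase of p53. Neurons, and the large sensory neurons of dorsal root ganglia in particular, hold dense stacks of ribosomes in the cell body. A few members have near copies of their own whose levels differ between tissues.

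The 48 libraries of messenger RNA came from cynomolgus monkeys (Macaca fascicularis) dosed with GS-8873 or its control by oral gavage for 13 weeks. The submitters describe GS-8873 as an inhibitor of hepatitis B virus messenger RNA. Control animals received 0 and treated animals 6 mg/kg/day, and 6 tissues were taken: liver, the cervical, thoracic and lumbar spinal cord, and the cervical and lumbar dorsal root ganglia. Each of the 12 groups had 4 libraries from 4 separate animals, 2 males and 2 females, identified by tissue, arm and replicate number. The same 4 control animals gave every tissue, so comparisons in different tissues share control animals. The labels name 6 treated animals, of which 4 gave liver and cord, whereas the design text counts 4. Treated replicate 4 of liver, of each cord region and of the cervical ganglia is the same female, which gave no lumbar ganglia. In bulk tissue, fewer cells of a type and less RNA per cell cannot be told apart.

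The libraries held 35453786 to 53480762 counts each, the mates of a pair being counted singly. Marker genes matched the tissue labels with 2 exceptions. Albumin (ALB) reached at least 120329 CPM (counts scaled to a common library total) in liver and at most 126 CPM elsewhere, and summed sensory neuron markers were at least 1303 CPM in ganglia and at most 170.0 CPM elsewhere. The exceptions were lumbar cord control replicate 1 and treated replicate 1, in which MOG, a myelin gene of the central nervous system, stood at 0.258 and 0.0870 CPM, while no other cord library had less than 330.0 CPM. Summed Schwann cell markers, which belong to peripheral nerve, reached 37547 and 27080.2 CPM there. Both libraries stayed in the fits, and values without them are given where lumbar cord is described.

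The 53 ribosomal protein genes of the table took up about 1% of counts in most libraries. They took up more in a number of cord and cervical ganglia libraries, with no clean break between them. In liver the summed share was 1.03% to 1.14% of counts in controls and 1.11% to 1.31% in treated animals. In lumbar ganglia it was 0.796% to 0.948% in controls and 1.04% to 1.52% in treated animals, so that each treated library lay above each control. In the other tissues, liver included, the groups overlapped.

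In cervical ganglia the treated shares were 1.23%, 0.986%, 1.35% and 3.91%, the last in replicate 4, against 0.836% to 1.48% in controls. Treated replicate 4 was also highest in cervical cord, at 1.97% against 0.862% to 1.07% in the other treated libraries, and in lumbar cord, at 2.59% against 0.945% to 1.38%. In thoracic cord the controls had 1.33%, 1.93%, 0.986% and 3.76% and the treated animals 3.38%, 1.53%, 1.65% and 3.49%. In the 7 libraries at or above 1.93% the share of transcripts of the mitochondrial genome was between 23.01% and 37.3%. In the lumbar ganglia this mitochondrial share overlapped between groups, 8.31% to 10.5% in controls and 8.56% to 11.4% in treated animals.

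**Figure D1:**
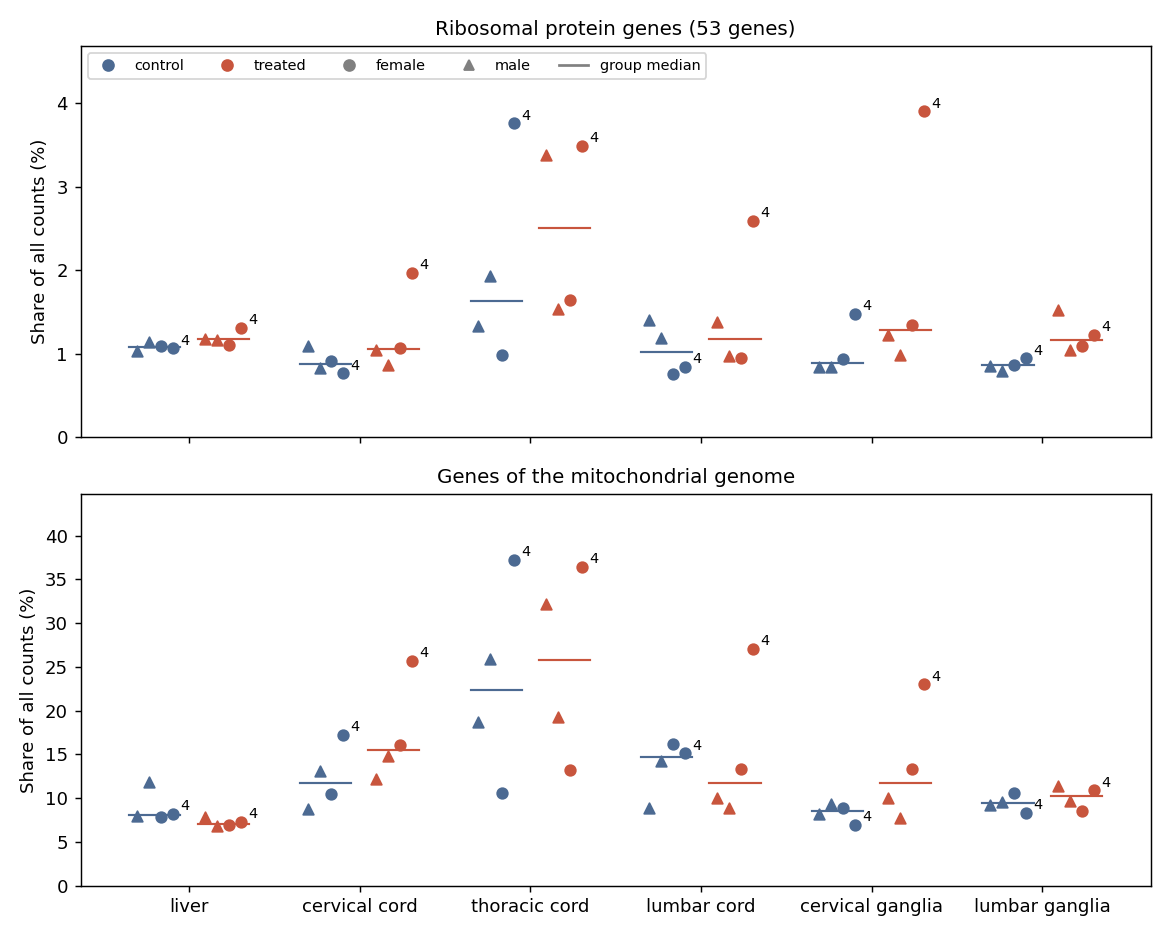
Share of all counts (percent, vertical axis) held by the 53 ribosomal protein genes (top) and by genes of the mitochondrial genome (bottom), for each library of the 6 tissues (horizontal axis), with circles for females, triangles for males, bars for group medians and the number 4 beside each replicate 4. In lumbar ganglia the treated libraries (1.04% to 1.52%) lie above the controls (0.796% to 0.948%) for the ribosomal protein genes, while treated replicate 4 stands alone in cervical ganglia at 3.91%.

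The comparison of treated with control animals was made gene by gene in each tissue with edgeR's quasi-likelihood test on TMM-scaled counts, with sex as a covariate. TMM scaling sets the typical gene to no change, so a value is relative to the other genes of the tissue. After a filter on low counts, 51 members were tested in liver and 52 in each nervous tissue. RPL3L passed in none, and RPL39L, which had at most 69 counts in a library, did not pass in liver.

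No member passed an adjusted p of 0.05 in any of the 6 tissues (edgeR, Benjamini-Hochberg over all genes tested). Over all genes the percentage passing was 0 in liver, the 3 cord regions and the cervical ganglia, and 4.29 in lumbar ganglia. At an unadjusted p under 0.05 there were 1 of 51 members in liver, lower (all genes 8.32%, of which lower 4.69%), 1 of 52 in cervical cord, higher (9.53%, higher 4.64%), 0 in thoracic cord (2.33%), 0 in lumbar cord (1.74%) and 1 in cervical ganglia, higher (7.35%, higher 2.28%). In lumbar ganglia there were 25 of 52, all of them higher in treated animals, where 10.1% of all genes were higher at that level and 22.6% differed either way. By limma voom the count of members passing the adjusted threshold was also 0 in each tissue, and by DESeq2 it was 0 in 5 tissues and 3 in lumbar ganglia.

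In each nervous tissue nearly all members had positive log2 fold changes. They were 51 of 52 in cervical cord (all genes 50.5%), 51 in thoracic cord (50%), 50 in lumbar cord (48.8%), 51 in cervical ganglia (56%) and 50 in lumbar ganglia (56.3%), against 16 of 51 in liver (51.9%). The medians over members were 0.44, 0.27, 0.53, 0.85 and 0.32 in those nervous tissues and -0.03 in liver, while the medians over all genes lay between -0.01 and 0.05. Since the members of a library moved up and down together, these counts are not counts of independent observations. The median SD of a member between libraries of a group was 0.97 on the log2 scale in thoracic cord and 0.90 in cervical ganglia, and 0.12 and 0.13 once each library was centred on its own median member. In liver and lumbar ganglia the SD was 0.13 and 0.26 before centring.

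**Figure D2:**
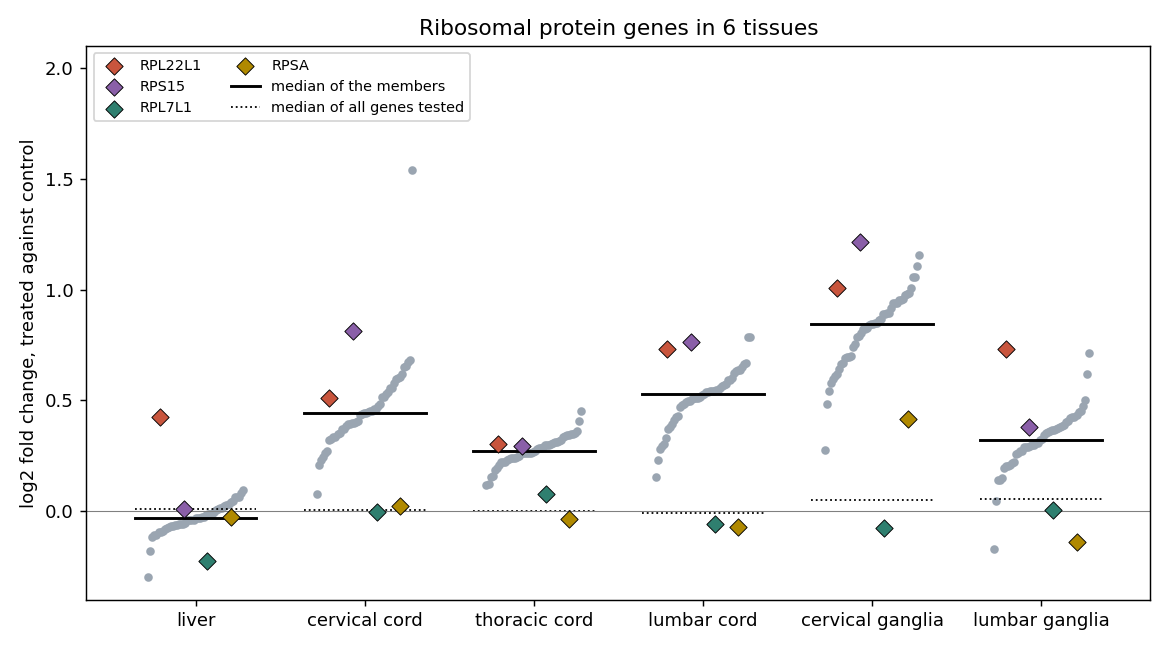
Log2 fold change, treated against control (vertical axis), of each tested ribosomal protein gene in the 6 tissues (horizontal axis), with the solid bar at the median of the members and the dotted bar at the median of all genes tested. Members lie around 0 in liver (median -0.03) and mostly above it in the nervous tissues, with RPL7L1 and RPSA at the low end of the nervous tissues and 0 members past the adjusted threshold.

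In liver the ribosomal protein genes showed no common shift. A pair of the 51 members was lower in each treated animal than in each control, a share near that of all genes. RPS2, a small subunit protein near the messenger RNA entry site (chromosome 20, 2022382 to 2025232), had 283, 339, 263 and 272 CPM in controls and 219, 241, 225 and 253 CPM in treated animals. The groups did not overlap, and the log2 fold change was -0.30 ± 0.11 (SE; edgeR adjusted p 0.507). RPL4, a large subunit protein that lines the exit tunnel, had 654, 716, 658 and 677 CPM in controls and 615, 618, 542 and 612 CPM in treated animals. It also did not overlap, with -0.18 ± 0.10 and an adjusted p of 0.680. Of all genes in liver, 3.09% were lower without overlap. The highest value was that of RPL22L1, with 0.42 ± 0.24, followed by the stalk protein RPLP2 with 0.09, RPS27L with 0.08 and RPL41 with 0.07. Per total counts in place of TMM the median over members was 0.15, with 48 of 51 positive, and that over all genes 0.18, so that the members stayed close to the typical gene under both scalings.

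In each region of the spinal cord most members had positive fold changes, by amounts that changed when single libraries were left out. RPS15, a small subunit protein at the decoding head (chromosome 19, 1228182 to 1230279), had 114, 100.2, 93.3 and 93.1 CPM in cervical cord controls and 122, 110.2, 165 and 366 CPM in treated animals. Treated replicate 4 was far above the rest, and the groups overlapped. The log2 fold change was 0.81 ± 0.35, with the smallest p among the members in that tissue (edgeR adjusted p 0.504). RPS21 (0.68), RPL8 (0.58), RPS19 (0.65) and RPL41 (0.65) followed, and RPL39L, at very low counts, had the highest value, 1.54.

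Without treated replicate 4 the cervical cord median over members was 0.06, with 36 of 52 positive. In lumbar cord RPL41, the smallest ribosomal protein (chromosome 11, 55032575 to 55033801), had 425, 438, 178 and 284 CPM in controls and 472, 293, 321 and 1232 CPM in treated animals. Its log2 fold change was 0.79 ± 0.59, and here too treated replicate 4 stood above all others. Without that library the lumbar cord median was -0.07, with 12 of 52 members positive. Without the 2 libraries low in MOG it was 0.74, with 52 of 52 positive and 0 past the adjusted threshold.

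In thoracic cord both groups held high libraries. RPL28, a large subunit protein (chromosome 19, 56228865 to 56245039), had 78.4, 129.9, 54.4 and 297 CPM in controls and 289, 85.0, 96.3 and 269 CPM in treated animals, a difference of 0.45 ± 0.61 on the log2 scale. The high values were those of control replicate 4 and treated replicates 1 and 4, the libraries with over 30% mitochondrial counts. The median over members was 0.27 with all libraries, -0.18 without treated replicate 1, 0.05 without treated replicate 4, 1.05 without control replicate 4 and 0.11 without all 3. With counts summed over the 3 cord regions of each animal, 52 of 52 members were positive (all genes 51.3%), the median was 0.45 and 0 members passed, at an unadjusted p under 0.05 as well (all genes 3.49%). Without treated replicate 4 the summed median was 0.03, with 35 of 52 positive.

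The cervical ganglia had the highest median of the 6 tissues, and treated replicate 4 carried most of it. RPS15 had 98.0, 106, 109.6 and 156 CPM in controls and 137, 114, 162 and 999.7 CPM in treated animals, a difference of 1.21 ± 0.60 on the log2 scale (edgeR adjusted p 0.729). RPL41 had 248, 278, 207 and 459.5 CPM in controls and 363, 273, 394 and 2339.9 CPM in treated animals, a difference of 1.16 ± 0.61 on the log2 scale. For both genes the other 3 treated libraries fell within or just above the range of the controls. RPL28 (1.11) and RPLP2 (1.06) followed, and RPL7L1 (-0.08), RPL4 (0.28) and RPSA (0.42) were lowest. Treated replicate 4 was the highest of the 8 libraries for 47 of the 47 members that are not near copies, in cervical ganglia as in cervical and lumbar cord. Without it the median over members in cervical ganglia was 0.15, with 47 of 52 positive.

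Fold changes were also compared with transcript length. Over the 47 members that are not near copies, the log2 fold change in cervical ganglia had a Spearman correlation with annotated length of -0.595, a description across genes of the same libraries. The 23 shorter members, under 798 bases, had a median of 0.92 and the 24 others 0.72. The correlation was -0.496 in cervical cord and -0.479 in lumbar cord, and -0.276 in lumbar ganglia, -0.208 in liver and 0.119 in thoracic cord. In treated replicate 4 of the cervical ganglia, nuclear genes of the respiratory chain, which are also short, held 1.83% of counts against 0.651% to 0.662% in the other treated libraries, and mitochondrial ribosomal protein genes 0.598% against 0.271% to 0.274%. Translation initiation factors held 0.681% in that library and 0.677% to 0.697% in the others. The part of transcript length, RNA quality or mitochondrial share in these fold changes was not tested.

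In lumbar ganglia the members stood higher over all 4 treated libraries, although 0 passed the adjusted threshold. The 47 members that are not near copies summed to 14012 and 11469 CPM in treated replicates 1 and 4. Treated replicates 2 and 3, with 9715 and 9794 CPM, lay close to the highest control, with 9502 CPM. Of 52 members, 18 had each treated animal above each control, where 7.38% of all genes were higher without overlap. No member did so in cervical, thoracic or lumbar cord or in cervical ganglia, against 3.16%, 0.855%, 0.738% and 2.2% of all genes. Among them were RPL8, RPL10A, RPL11, RPL15, RPL22, RPL22L1, RPL27, RPL28, RPL31, RPL41 and RPL7A of the large subunit and RPS7, RPS10, RPS15, RPS16, RPS19 and RPS29 of the small subunit. The 2 subunits had alike medians, 0.32 over 31 large subunit members and 0.32 over 21 small subunit members. No member had each treated animal below each control (all genes 9.35%).

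RPL28 had 53.3, 52.05, 58.7 and 56.7 CPM in controls and 84.3, 64.4, 66.5 and 69.7 CPM in treated animals, a difference of 0.37 ± 0.11 on the log2 scale (edgeR adjusted p 0.1003). RPS15 had 102, 109, 137 and 131 CPM in controls and 175, 158, 145 and 141 CPM in treated animals, with 0.38 ± 0.12 and an adjusted p of 0.127. RPL31, a large subunit protein at the exit of the tunnel, had 173, 145, 169.5 and 162 CPM in controls and 256, 195, 181 and 214 CPM in treated animals, with 0.38 ± 0.12. In none of these 3 genes did the groups overlap, and treated replicate 1 was highest in each.

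RPL37, a small zinc-binding protein of the large subunit, had 1 of the largest values but overlapping groups. Controls had 71.5, 57.2, 59.8 and 69.0 CPM and treated animals 166, 72.6, 63.7 and 124 CPM (log2 fold change 0.71 ± 0.29). RPS6, the small subunit protein that the S6 kinases phosphorylate, went from 181 ± 7.33 CPM (SD, n = 4) to 256 ± 71.5 CPM (log2 fold change 0.50 ± 0.19). RPS19, the protein most often mutated in Diamond-Blackfan anaemia, gave 0.43 ± 0.14. The MDM2-binding RPL11 and RPL5 gave 0.36 ± 0.14 and 0.27 ± 0.14, and RPL3, at the peptidyl transferase centre, 0.38 ± 0.16. Each had an edgeR adjusted p above 0.05.

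The stalk proteins recruit elongation factors to the ribosome. RPLP0, the base of the stalk (chromosome 11, 124080181 to 124084784), had 386, 363, 349 and 371 CPM in controls and 524, 379.9, 416 and 455 CPM in treated animals, a difference of 0.27 ± 0.12 on the log2 scale. Only treated replicate 2 lay within the range of the controls. RPLP2, which sits on RPLP0, gave 0.47 ± 0.23. At the low end stood RPSA, which besides its place in the small subunit is known as a laminin receptor (chromosome 2, 94312130 to 94318053). It had 224, 193, 215 and 229 CPM in controls and 239, 175, 173 and 197 CPM in treated animals, with -0.14 ± 0.13.

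**Figure D3:**
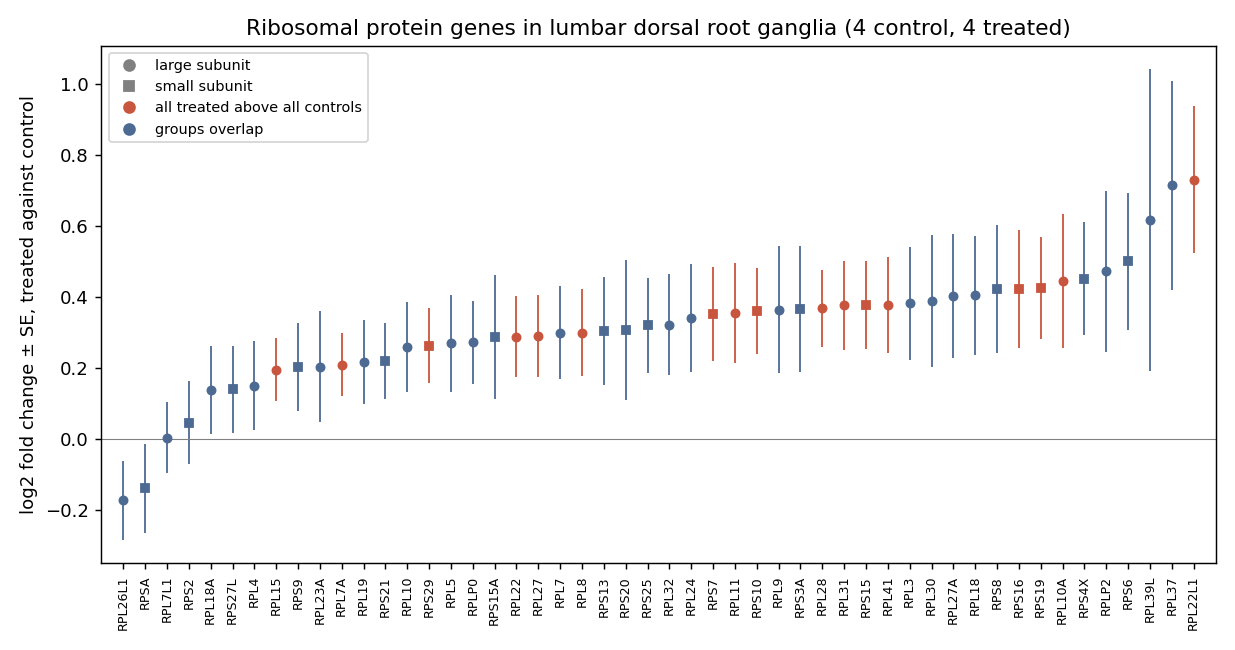
Log2 fold change ± SE, treated against control (vertical axis), of 50 of the 52 tested ribosomal protein genes in lumbar dorsal root ganglia, sorted by value (horizontal axis), with circles for large and squares for small subunit genes and red for genes with each of 4 treated animals above each of 4 controls. Values run from -0.17 (RPL26L1) to 0.73 (RPL22L1), and RPL26L1 and RPSA are the genes below 0.

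How many members passed in lumbar ganglia depended on the test and the scaling. DESeq2 passed 3, among them RPL22L1 (adjusted p 0.0184) and RPL28 (0.0465), where it passed 13.5% of all genes. Without the sex term edgeR passed 1, where it passed 5.12% of all genes. Per total counts in place of TMM edgeR passed 21, all higher, against 12.9% of all genes. Under that scaling the median over members was 0.51 and the median over all genes 0.24, a shift of the typical gene of more than 0.1 from its TMM value of 0.05. Relative to the members alone, a scaling chosen after seeing the data, 0 passed. Without treated replicate 1, the library with the highest share, the TMM median over members was 0.18, with 49 of 52 positive.

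The near copies did not all follow the other members. RPL22L1, the copy of RPL22 (chromosome 2, 75072391 to 75076524), had the highest value of any member in lumbar ganglia. Controls had 19.2, 14.5, 14.4 and 18.1 CPM and treated animals 35.7, 23.4, 19.6 and 31.4 CPM, so the groups did not overlap. The log2 fold change was 0.73 ± 0.21 (edgeR adjusted p 0.0910). RPL22 itself went from 193 ± 7.39 to 237 ± 36.03 CPM (SD, n = 4), with 0.29 ± 0.11.

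RPL22L1 was positive in each of the 6 tissues. In cervical ganglia it had 18.5, 18.8, 14.3 and 30.1 CPM in controls and 28.6, 21.7, 39.9 and 93.7 CPM in treated animals, a difference of 1.01 ± 0.39 on the log2 scale (edgeR adjusted p 0.619). In liver it had 17.2, 16.7, 13.4 and 9.93 CPM in controls and 15.8, 25.9, 22.5 and 11.6 CPM in treated animals, with 0.42 ± 0.24. The groups overlapped in both tissues. In cervical cord controls had 30.9, 18.9, 20.3 and 13.4 CPM and treated animals 23.7, 21.5, 26.04 and 49.02 CPM, with 0.51 ± 0.36. Thoracic cord gave 0.30 ± 0.54 and lumbar cord 0.73 ± 0.44, also with overlap. Relative to the members alone its values were 0.47 in liver, 0.11, 0.06 and 0.30 in cervical, thoracic and lumbar cord, 0.33 in cervical ganglia and 0.41 ± 0.18 in lumbar ganglia (edgeR adjusted p 0.225).

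RPL7L1, a relative of RPL7 that acts in ribosome assembly (chromosome 4, 127699406 to 127710171), stayed near 0 where most others were positive. In lumbar ganglia it had 102, 116, 91.5 and 97.8 CPM in controls and 103, 93.5, 111 and 99.9 CPM in treated animals. Its log2 fold change there was 0.00 ± 0.10, and over the other tissues it lay between -0.23 in liver and 0.08 in thoracic cord. RPL26L1 went from 39.1 ± 1.85 to 34.7 ± 4.64 CPM in lumbar ganglia, the lowest value among the members there (-0.17 ± 0.11). RPS27L, a p53 target, gave 0.14 ± 0.12. RPL39L, a copy known from testis, gave 0.62 ± 0.42 on few counts. RPL3L, a copy of RPL3 known from skeletal and heart muscle (chromosome 20, 2005249 to 2014724), had 0 counts in 26 of 48 libraries. Its highest counts were 62, 54 and 48, in lumbar ganglia control replicates 4 and 1 and treated replicate 1, and the next was 8. In those 3 libraries the muscle genes CKM and ACTA1 stood at 121, 32.2 and 23.3 CPM and at 143, 94.6 and 47.9 CPM.

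With both ganglia in 1 limma voom fit, in which animal was a random block, 51 of 52 members were positive (all genes 55.6%) and the median was 0.59. No member passed the adjusted threshold, where 1% of all genes passed either way. At an unadjusted p under 0.05 there were 2, RPL22L1 (0.88 ± 0.33, adjusted p 0.268) and RPL3 (0.52 ± 0.24, adjusted p 0.409), against 11.5% of all genes. In a fit with the replicate number in place of sex and no animal term, RPL22L1 passed (0.85 ± 0.21, limma adjusted p 0.0235). There 7.15% of all genes passed. That fit treated libraries of the same animal as independent, so its p-values can be too small. Without the treated female that gave cervical ganglia replicate 4 and no lumbar ganglia, the median was 0.24.

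Whether the treatment difference itself differed between tissues was tested in limma over all 48 libraries, with 0 members passing in each of 3 interactions. The difference in ganglia exceeded that in liver in 52 of 52 members (all genes 50.7%; median 0.57; smallest adjusted p 0.977; 0.0328% of all genes passed). That in cord exceeded that in liver in 51 of 52 (all genes 49%; median 0.41; smallest adjusted p 0.927; 0.157% passed). That in cord exceeded that in ganglia in 3 of 52 (all genes 50.6%; median -0.15; smallest adjusted p 0.841; 0.308% passed). No member reached an unadjusted p under 0.05 in any of them (all genes 6.16%, 5.59% and 9.8%), nor did any pass in edgeR with animal as a fixed term. These 3 comparisons share animals.

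Other genes of protein synthesis were followed in lumbar ganglia as lists, with all genes at a median of 0.05. Of all genes there, 56.3% were positive and 4.29% passed either way. Of 12 elongation factors and other genes with the oligopyrimidine start, 10 were positive (median 0.14), and 1 passed, EEF1A2, the elongation factor form of neurons and muscle. EEF1A2 fell from 765 ± 86.4 to 413 ± 63.7 CPM (log2 fold change -0.90 ± 0.13, edgeR adjusted p 0.0172). EEF1A1, the common form, gave 0.56 ± 0.21, and RACK1, a scaffold on the small subunit, 0.44 ± 0.10 (edgeR adjusted p 0.0563). Of 36 ribosome biogenesis factors 25 were positive (median 0.14) and 0 passed, with NOP58, a box C/D particle protein, closest (0.34 ± 0.08, edgeR adjusted p 0.0597).

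Initiation factors were split, with 13 of 25 positive (median 0.01). EIF3B, a core subunit of the initiation factor that binds the small subunit, fell (-0.36 ± 0.07, edgeR adjusted p 0.0354). Regulators of ribosomal protein messengers had 11 of 24 positive (median -0.01), and 2 fell, HBS1L, a ribosome rescue factor (-0.53 ± 0.11, edgeR adjusted p 0.0383), and TSC2, a repressor of mTOR (-0.46 ± 0.10, 0.0397). LARP1 gave -0.62 ± 0.17 (edgeR adjusted p 0.0827). Protein genes of the mitochondrial ribosome were split, with 28 of 61 positive (median -0.01). Of the 61, 2 fell, MRPS33 (-0.38 ± 0.08) and MRPS7 (-0.34 ± 0.08), where 4.29% of all genes passed either way. Nuclear genes of the respiratory chain had 13 of 49 positive (median -0.09), of which ATP5F1B, a subunit of the ATP synthase, fell (-0.59 ± 0.12, edgeR adjusted p 0.0338). Messengers of the mitochondrial genome had 5 of 13 positive (median -0.05).

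The other tissues gave another pattern for these lists, with 0 list members passing, where 0 of all genes passed. Of all genes, 56% were positive in cervical ganglia, 50.5% in cervical cord and 51.9% in liver. In cervical ganglia 55 of 61 mitochondrial ribosomal protein genes had positive values (median 0.58), as had nuclear respiratory chain genes in 45 of 49 (median 0.83) and elongation factors in 10 of 12 (median 0.39). In cervical cord they were positive in 57 of 61 (median 0.41), 47 of 49 (median 0.60) and 9 of 12 (median 0.31). In liver they were positive in 13 of 61 (median -0.06), 15 of 49 (median -0.03) and 1 of 11 (median -0.12).

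Neuron markers moved in the opposite direction to the members in lumbar ganglia. Of 8 general neuron markers 0 were positive (median -1.01), where 56.3% of all genes were positive. Of the 8, 5 fell, where 4.29% of all genes passed either way. Among the 5 were the neurofilament genes NEFH (-2.58 ± 0.32, edgeR adjusted p 0.0154), NEFL and NEFM. The summed level of the 8 markers was 27966 to 39642 CPM in controls and 12641 to 18042 CPM in treated animals, without overlap. The 7 macrophage and microglia markers were all positive (median 0.36) and 0 of them passed, and of 6 Schwann cell markers 1 was positive (median -0.10). In cervical ganglia 0 of the 8 neuron markers were positive (median -0.70) and 0 passed, where 56% of all genes were positive and 0 passed. The part of cell composition in the values of the members was not tested.

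Levels were compared between genes per kilobase of annotated length, in control animals and as CPM of all counts. RPL41 led in the 5 nervous tissues, with 515 CPM per kilobase in lumbar ganglia and 592 in cervical cord, and stood next to RPL30 (660 against 637) in liver. RPL30, RPL23A and RPS3A were also among the top 5 in cervical cord, lumbar cord and lumbar ganglia. RPLP0 (450 CPM per kilobase) and RPL4 (447) were among the top 5 in liver. At the other end, RPL3L, RPL39L, RPL7L1, RPL22L1, RPS27L, RPL26L1 and RPL28 were the lowest 7 in each of the 6 tissues, with RPL28 at 54.5 and RPL22L1 at 19.3 CPM per kilobase in lumbar ganglia. Counting left out reads that map to more than 1 place, which lowers genes with near-identical pseudogenes, so these orders hold for uniquely mapped reads.

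**Figure D4:**
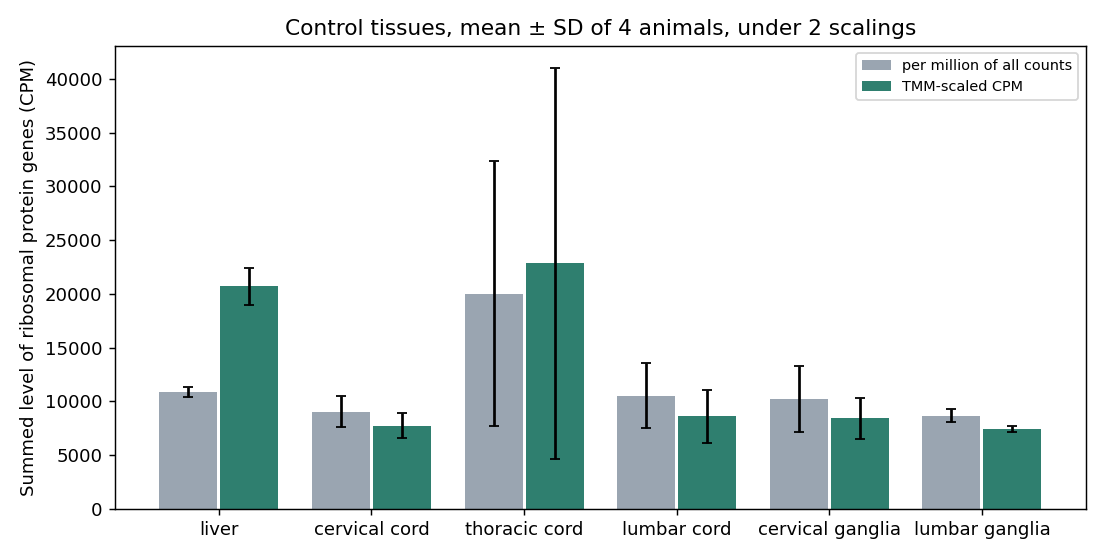
Summed level of the ribosomal protein genes in control animals of the 6 tissues (horizontal axis), as CPM of all counts (grey) and as TMM-scaled CPM (green), mean ± SD of 4 animals. Liver is at 10821 CPM of all counts and 20683 TMM-scaled CPM, and thoracic cord has the widest SD under both scalings.

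The summed level of the members in control animals was 10821 ± 470 CPM of all counts (SD, n = 4) in liver, 9029 ± 1423 in cervical cord, 10512 ± 3029 in lumbar cord, 10226 ± 3072 in cervical ganglia and 8672 ± 627 in lumbar ganglia. Thoracic cord had 20020.3 ± 12358, with control replicate 4 highest. Neighbours in the order of these means differed by less than the larger of their SDs. In liver the 10 most abundant genes took 26.99% to 28.6% of counts and the TMM factors were 0.491 to 0.542. Its TMM-scaled sum was 20683 CPM, against 7410 to 8605 in cervical and lumbar cord and both ganglia. Thoracic cord had a TMM-scaled mean above that of liver, 22823 ± 18202 CPM, with single controls from 8984 to 49226 CPM.

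Control liver and control nervous tissue were compared in edgeR with animal as a block. Under TMM 46 of 52 members were higher in liver and 0 lower, where 34.3% of all genes were higher and 42.2% lower, with a median of 1.02. The largest were RPS2 (1.74 ± 0.24), RPLP0 (1.63 ± 0.23), RPS15A (1.41 ± 0.29), RPS6 (1.41 ± 0.23) and RPL24 (1.401 ± 0.24). Per total counts 2 were higher, RPS2 (0.64 ± 0.22, edgeR adjusted p 0.0134) and RPLP0 (0.52 ± 0.22, 0.0370), and 4 lower, the near copies RPL39L (-1.77), RPL26L1 (-1.10), RPL22L1 (-0.77) and RPL7L1 (-0.32), where 84.5% of all genes passed either way. The median over all genes was -0.18 under TMM and -1.30 per total counts, so the direction for the members depends on which is taken as unchanged.

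Control ganglia against control cord gave 25 members lower in ganglia and 1 higher, where 32.4% of all genes were lower and 29.5% higher, with a median over members of -0.54. The cord side is the mean of 3 regions that were not tested one by one. Their TMM-scaled control sums were 7721 CPM in cervical, 22823 in thoracic and 8605 in lumbar cord. Those of the cervical and lumbar ganglia were 8407 and 7410 CPM. RPL23A (-0.95 ± 0.22, edgeR adjusted p 0.00148), RPS6 (-0.80 ± 0.22, 0.00433), RPS29 (-0.80 ± 0.27), RPL27A (-0.79 ± 0.23) and RPL22L1 (-0.78 ± 0.26) were the lowest, and RPL7L1 was the higher one (0.24 ± 0.07, 0.00896). The count rested on which control animals were in the fit: it was 3 without replicate 2, 7 without replicate 1 and 34 without replicate 4, the animal with the highest thoracic share. Without the libraries over 30% mitochondrial, a setting chosen after seeing the data, 18 were lower and 2 higher. RPLP0 did not differ beyond its error (-0.05 ± 0.22).

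RPS4X, the small subunit gene on the X chromosome (69333738 to 69338289), is known in humans to escape X inactivation. It was singled out after its values were seen, and its levels by sex are given as a description. Taken relative to the median of the 47 members that are not near copies, in log2 units, RPS4X in liver lay at 0.549 to 0.695 in the 4 females and 0.0106 to 0.131 in the 4 males. In lumbar ganglia it lay at 0.648 to 0.811 in females and 0.193 to 0.372 in males. In each of the 6 tissues all 4 females stood above all 4 males, with differences of the means of 0.56 in liver, 0.42, 0.50 and 0.43 in cervical, thoracic and lumbar cord, and 0.48 and 0.47 in cervical and lumbar ganglia.

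Averaged over the tissues of each animal, after centring in each tissue, 5 females lay between 0.176 and 0.293 and 5 males between -0.275 and -0.117, a difference of 0.46. The next member by this measure was RPS15, with 0.13. RPL10, the other X-linked member, is a large subunit protein that joins late in assembly. Its female minus male value in the edgeR fits, less that of the median member, was -0.16 to 0.07 over the 6 tissues. Without that subtraction it ran from -0.11 in lumbar cord to 1.05 in cervical ganglia. In the edgeR fits without this reference, where the common movement of members stays in the error, the sex term of RPS4X had adjusted p values of 0.427 or more. The treatment difference of RPS4X in lumbar ganglia was 0.45 ± 0.16, near the 0.32 of the median member.

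**Figure D5:**
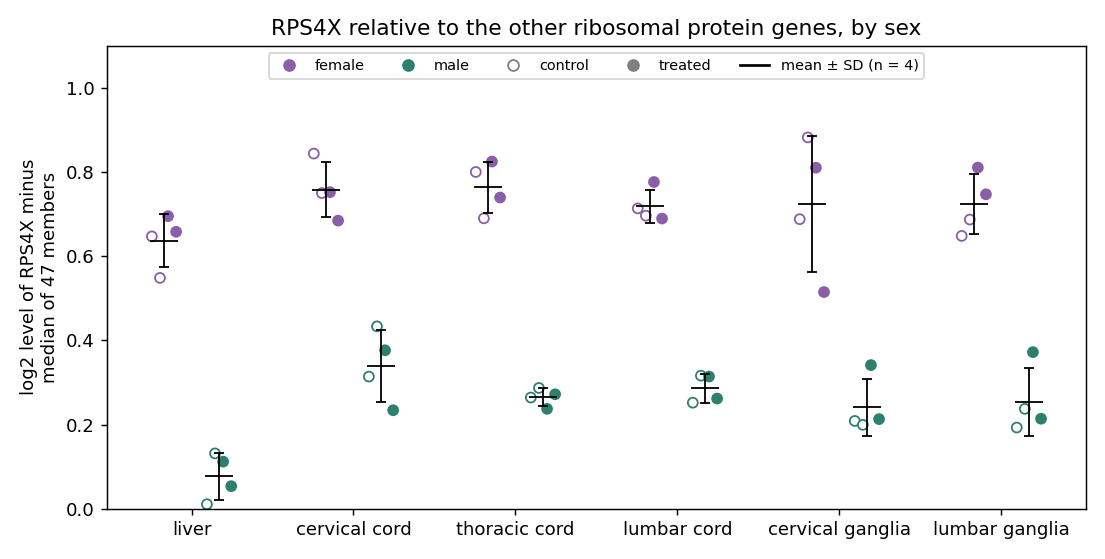
Log2 level of RPS4X minus the median of 47 ribosomal protein genes of the same library (vertical axis) in females and males of the 6 tissues (horizontal axis), with open points for controls, filled points for treated animals and bars for mean ± SD (n = 4). In each tissue the 4 females lie above the 4 males, as in liver with 0.549 to 0.695 against 0.0106 to 0.131.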

How the data were processed

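The authors deposited 1 table of raw counts per gene name for 48 libraries, made with featureCounts 1.4.6-p1 on Ensembl release 94 of the Macaca_fascicularis_5.0 build per the file headers. Per the submitters' processing notes, STAR 2.5.3a was the aligner. Per the labels, RNA was extracted with miRNeasy from tissue in RNAlater and read as 50 bp pairs from stranded poly(A) libraries. The featureCounts call recorded there has no option for pairs, strand or multi-mapping reads, so mates counted singly, strand was ignored, and reads of near-identical copies or pseudogenes were left out. Rfam rows held 0.0558% of counts and 0 columns were left out.

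Groups come from the labels. The members and lists were chosen with earlier results of these data known. Each tissue was tested in edgeR 4.0.16 (R 4.3.3): TMM, filterByExpr by group, robust quasi-likelihood fit, sex as covariate, two-sided, Benjamini-Hochberg adjusted p under 0.05 over all genes. Cord counts were also summed per animal. Both ganglia and the interactions used limma 3.58.1 voom with animal as a random block (statmod 1.5.0, correlation 0.727 in ganglia), and control tissues edgeR with animal as a block. Unless stated otherwise, levels are CPM after TMM scaling in that fit and errors of fold changes are SE. Scripts were tested on simulated data. Genes were named by smallest p, largest and smallest fold change, highest level per kilobase, and a short list of near copies, stalk proteins and known regulators, with up to 3 genes per other list. RPS4X was singled out later. Genes not reported here by name stay in the counts and medians.

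The alternatives were DESeq2 1.42.0, limma voom, total counts, median-ratio factors, TMM without the members, other filters on low counts, fits without sex, a replicate-number block, other sample sets, libraries left out by tissue markers or mitochondrial share, and each animal or replicate left out in turn. Scaling on the members alone, and control comparisons without libraries over 30% mitochondrial, were chosen after seeing the data. To check pairing, each library's deviations from its group mean were correlated with those of the same-numbered library. In lumbar cord each such correlation exceeded 0.1 (0.919, 0.192, 0.792 and 0.505), which meets the rule for pairing although the animals differ. The pairing there comes from the data alone. Its highest value, 0.919, is that of control and treated replicate 1, the 2 libraries low in MOG and high in Schwann cell markers. The part of their tissue content in it was not tested.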

Additional observations from a re-analysis of the deposited data

Results flagged for a closer look

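In groups of 4 libraries a library was flagged where its gap to the nearest other library exceeded the 95% critical value of Dixon's test, which chance alone passes in about 1 in 20 groups. The share of counts held by ribosomal protein genes was checked in 12 groups and 2 were flagged. In treated cervical ganglia replicate 4 had 3.91%, against 0.986% to 1.35% in the others. In control cervical ganglia replicate 4 had 1.48%, against 0.836% to 0.935%. The summed fibroblast markers of that control were 8727 CPM, and the part of connective tissue in its share was not tested.

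Among the members whose libraries are given one by one, treated replicate 4 stood apart for RPS15 (999.7 CPM) and RPL41 (2339.9 CPM) in cervical ganglia and for RPL22L1 in cervical cord (49.02 CPM). These genes were not alone, since that replicate was flagged for 44 of 52 members in cervical ganglia and 22 of 52 in cervical cord. In treated liver RPL4 was flagged for the low value of replicate 3, 542 CPM.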

How the results depend on the processing

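Of 239 counts of members passing under an alternative, 232 stayed within 1.5 times the reported count or at 0, and of 157 medians 154 moved by less than the spread between libraries. That spread was wide in the nervous tissues, up to 0.99 (log2, SD) in thoracic cord, so a median can change sign within it. In lumbar ganglia 3 members passed by DESeq2, 1 without the sex term and 21 per total counts, and the median was 0.51 per total counts and 0.011 on the members alone. The liver median was 0.15 per total counts, and in control liver 6 members passed against 46. With the replicate block and no animal term, 1 member passed in both ganglia. With the replicate block in lumbar cord, the tissue that met the pairing rule, 0 passed and the median was 0.35. The replicate block changed no other call in the treated comparisons.

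Leaving out 1 replicate or animal at a time, medians ran from -0.09 to 0.03 in liver, 0.06 to 0.62 in cervical cord, -0.18 to 1.05 in thoracic cord, -0.07 to 0.85 in lumbar cord, 0.15 to 1.05 in cervical ganglia, 0.18 to 0.40 in lumbar ganglia, 0.03 to 0.66 in summed cord and 0.24 to 0.75 in both ganglia, with 0 members passing throughout. In controls 3 to 34 members passed between ganglia and cord and 41 to 50 between liver and nervous tissue. Single members turned sign in 6 of 939 cases: RPL19 in liver per total counts (0.070), RPL3 in both ganglia (-0.064) and RPL7A in thoracic cord (-0.000736) on the members alone, and RPL19, RPL28 and RPL7A in thoracic cord without treated replicate 1. Leaving out each replicate there gave -0.10 to 0.98 for RPL19, -0.063 to 1.23 for RPL28 and -0.059 to 0.90 for RPL7A, the highest without control replicate 4. The cause was not tested, except that scaling on the members alone sets their median near 0 by construction. With 4 animals per group, exact tests of a single value cannot give a two-sided p under 0.02857.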
